A study of Homo sapiens with 4 samples.

Results

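The 38 genes described here report stress of the endoplasmic reticulum (ER) and the integrated stress response. They were chosen by name, with earlier results of these data known, as ATF4 targets, ER chaperones and genes of the unfolded protein response together with *CEBPB*. All 38 were found by their Ensembl identifiers among the 63677 genes listed for each library. RNAseq counts were compared between FLO-1LM and FLO-1 parental cells, with 2 libraries per line. FLO-1 is a long-established line from human esophageal adenocarcinoma (EAC), and FLO-1LM is 1 subline of it, grown from a liver metastasis after serial passage of FLO-1 tumors through immunodeficient NSG mice. RNA came from cultures that covered 80% of the dish and had been fed 24 h earlier, in both lines alike. The labels name no drug or stressor. FLO-1LM stands for a single derivation, so what differs between the lines cannot be told apart from what differs between any subline and its parent. Whether the paired libraries represent independent cultures is not stated, so p-values measure only the spread between these libraries, which may be technical.

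The ER folds secreted and membrane proteins, and its chaperones, led by *HSPA5* (BiP), bind chains that are not yet folded. When folding falls behind, 3 sensors in the ER membrane respond. IRE1 (encoded by *ERN1*) splices *XBP1* mRNA, ATF6 is cut to release a transcription factor, and PERK (encoded by *EIF2AK3*) phosphorylates the translation factor eIF2. PERK shares its substrate with kinases that sense amino acid shortage, heme deficiency and viral RNA, and the common output is called the integrated stress response. Phosphorylated eIF2 lowers general translation while translation of *ATF4* mRNA increases, and ATF4 then activates genes for amino acid synthesis and transport, tRNA charging and stress adaptation. Translational control of *ATF4*, phosphorylation of eIF2 and splicing of *XBP1* do not show in counts per gene, so the levels of downstream targets are what these data hold on either pathway.

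Targets of the different branches are known to be activated through different short promoter elements. Promoter windows from 250 bases before to 50 bases after each start site, from RefSeq on GRCh38.p14, were found for 35 of the 38 members, with none used for *SHMT2*, *SLC7A11* and *PDIA3*. The ER stress element, through which ATF6 and NF-Y are known to act, was searched on both strands as CCAAT, 9 bases of any kind, and CCACG. It was found in 9 of 52 member windows (17.3%) and in 27 of all 35116 windows (0.0769%). Overlapping windows of *CANX* held the same match, and by gene the shares were 7 of 35 members (20%) and 25 of 27305 genes (0.0916%). The members were chosen as ER chaperone and unfolded protein response genes among others, so this contrast is a description and no independent test of the element. The 7 member genes with a match were *HSPA5*, *HSP90B1*, *CALR*, *CANX*, *PDIA6*, *XBP1* and *CRELD2*, all from the ER folding and unfolded protein response genes. The following 6 stretches are shown because they carry the element in 6 members whose levels are given below, namely the chaperone genes *HSPA5*, *HSP90B1* and *CALR*, the isomerase gene *PDIA6*, the transcription factor gene *XBP1* and *CRELD2*, which encodes a secreted stress protein. Capitals mark the element, which begins with CGTGG and ends with ATTGG where it lies on the other strand, and *HSP90B1* has a match in each orientation. *CANX* is named only.
HSPA5 (chr9:125241361-125241439, minus strand, -96 to -18 from the start site): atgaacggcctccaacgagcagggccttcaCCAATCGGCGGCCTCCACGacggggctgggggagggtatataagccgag
HSP90B1 (chr12:103930186-103930369, plus strand, -224 to -41 from the start site): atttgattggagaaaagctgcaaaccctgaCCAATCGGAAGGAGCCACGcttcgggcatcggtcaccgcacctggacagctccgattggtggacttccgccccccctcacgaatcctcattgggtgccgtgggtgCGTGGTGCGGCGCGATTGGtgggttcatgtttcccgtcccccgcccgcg
CALR (chr19:12938359-12938432, plus strand, -250 to -177 from the start site): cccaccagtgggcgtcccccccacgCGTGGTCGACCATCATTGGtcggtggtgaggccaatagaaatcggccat
PDIA6 (chr2:10812823-10812901, minus strand, -116 to -38 from the start site): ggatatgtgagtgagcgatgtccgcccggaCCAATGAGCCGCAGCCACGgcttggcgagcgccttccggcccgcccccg
XBP1 (chr22:28800573-28800651, minus strand, -82 to -4 from the start site): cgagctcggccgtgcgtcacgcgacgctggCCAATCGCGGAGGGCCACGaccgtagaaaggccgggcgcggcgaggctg
CRELD2 (chr22:49918524-49918602, plus strand, -110 to -32 from the start site): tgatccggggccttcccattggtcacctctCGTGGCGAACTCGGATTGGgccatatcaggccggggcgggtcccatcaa

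The core of the unfolded protein response element, TGACGTGG, which XBP1 is known to bind, was found in the window of 1 member, the chaperone gene *HYOU1*, and in 0.729% of all windows. The core of the C/EBP-ATF response element, TTGCATCA, which dimers of ATF4 with C/EBP proteins are known to bind, was found in 3 members, *CHAC1*, *HERPUD1* and *CEBPG*. That was 5.77% of member windows, against 0.866% of all windows, and the first core was in 1.92% of member windows. In windows of the further genes of the same pathways listed below, the first core was in 7.04% and the second in 9.86%. Neither core was thus particular to the members. The ER stress element was in 1 of 142 windows of those further genes (0.704%), which is also above the 0.0769% of all windows. Both strands were searched. The letters CGTGG of the first core are also an end of the ER stress element, but no member window held both motifs as searched. Only the form of the ER stress element with 9 bases between its ends was searched. In the *HYOU1* stretch below, CCAAT follows the core after 1 base, a spacing that the search did not cover. These stretches are shown for comparison with the ER stress elements above, with the core in capitals, and *CEBPG* is named only.
HYOU1 (chr11:119057356-119057423, minus strand, -218 to -151 from the start site): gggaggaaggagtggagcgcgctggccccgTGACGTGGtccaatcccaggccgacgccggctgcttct
CHAC1 (chr15:40953232-40953299, plus strand, -239 to -172 from the start site): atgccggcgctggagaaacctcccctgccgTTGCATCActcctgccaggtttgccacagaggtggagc
HERPUD1 (chr16:56931936-56932003, plus strand, -206 to -139 from the start site): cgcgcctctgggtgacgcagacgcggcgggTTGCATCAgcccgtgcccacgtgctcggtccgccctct
A match is a description of these windows, and elements farther from the start site were not searched.

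The libraries held 19060310 to 25920336 counts. Of the 63677 genes, 17143 passed a filter on low counts (at least about 10 in 2 libraries) and were tested. All 38 members passed, and the lowest mean count among them was 322. Levels are given as CPM, counts relative to library size after scaling each library by TMM factors (0.985 to 1.015). Mitochondrially encoded genes took 9.57% to 9.96% of counts in FLO-1LM and 7.93% to 8.31% in parental cells. Within either line the counts of the libraries differed beyond sampling noise (chi-square over its degrees of freedom 7.85 for FLO-1LM and 3.70 for parental), so each library was counted separately. The libraries of a line are called first and second by their order of listing only. Of the epithelial markers checked, *KRT8* and *KRT18* had 4068 to 9568 counts per library, whereas *EPCAM*, a defining epithelial gene, had 3 to 12. Summed over 6 epithelial markers, counts were 11182 and 12560 in FLO-1LM and 18694 and 16538 in parental cells, mostly from *KRT8* and *KRT18*. Of the 6, *CDH1* had 365 and 512 counts in FLO-1LM and 1894 and 1583 in parental cells. *KRT7* went the other way, with 142 and 156 counts in FLO-1LM and 68 and 94 in parental cells. The part of these differences in the results below was not tested. All 4 leukocyte markers and the 3 endothelial markers measured had at most 7 counts in any library. Of the fibroblast markers, *DCN* and *COL3A1* were at 0 and nearly all counts came from *COL1A1*, and of the hepatocyte markers *ALB* and *TTR* were at 0 and nearly all counts came from *SERPINA1*.

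Of the 38 members, *CEBPB* alone was differentially expressed between FLO-1LM and parental cells at an adjusted p-value below 0.05 (edgeR quasi-likelihood test, adjusted over all 17143 genes). That is 2.63% of the members, beside 2.23% of all genes tested, so the share is near the background. Because the members, *CEBPB* among them, were chosen with earlier results of these data known, the share is a description only. DESeq2 also called *CEBPB* alone. Among all genes, 1.83% were called lower in FLO-1LM and 0.402% higher. At an unadjusted p below 0.05 there were 6 members (15.8%), beside 12.4% of all genes. The median log2 fold change, FLO-1LM against parental, was 0.035 over the members and 0.0016 over all genes. For 29 of the 38 members the log2 fold change lay within 0.15 of 0, and for 21 the whole 95% confidence interval lay within 0.3 of 0. Members whose interval is wider are not shown to be alike in the lines. Both FLO-1LM libraries lay above both parental libraries for 8 members, beside 20.9% of all genes, and below them for 6, beside 21.7%. Together these 14 make 36.8% of the members, beside 42.6% of all genes. For any 1 gene, exact permutation of 2 against 2 libraries reaches a p of 0.333 at best, and the calls rest on spread that the model shares across genes.

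**Figure D1:**
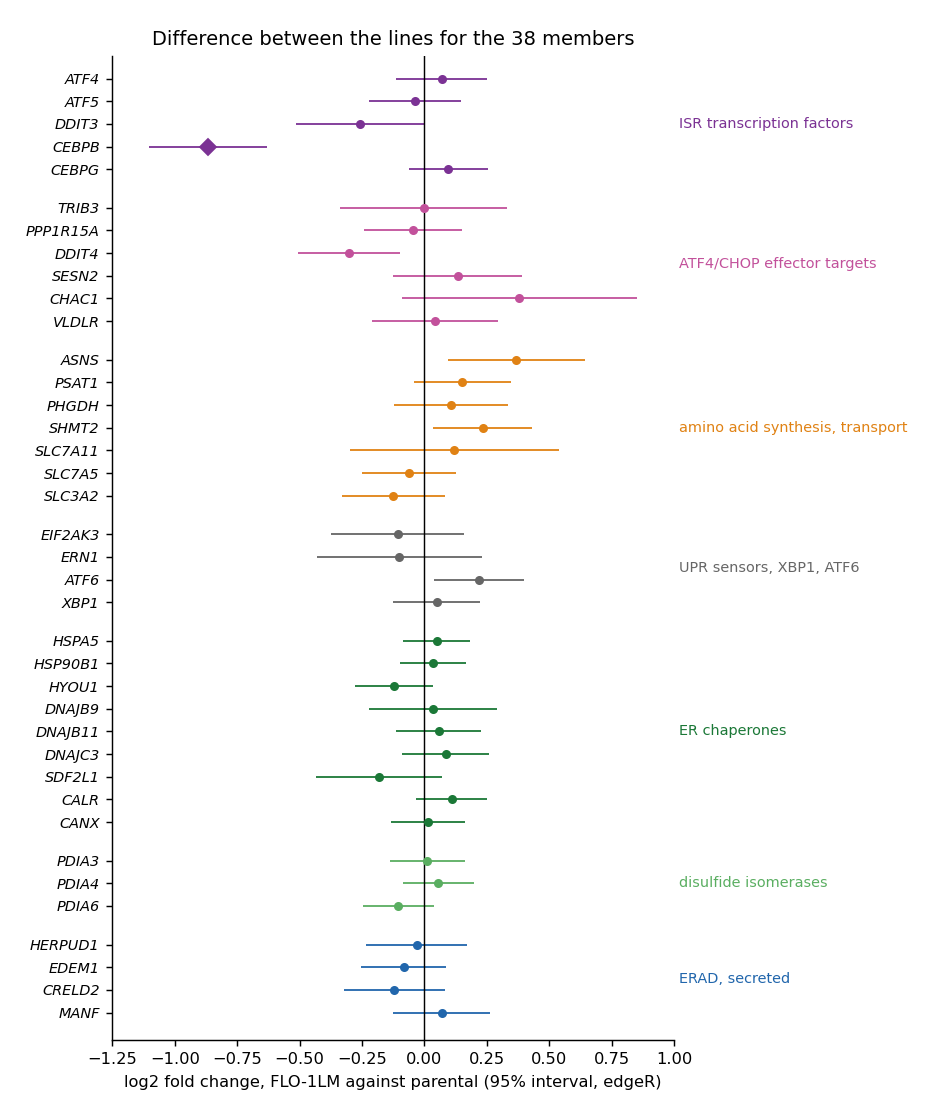
Log2 fold change of each of the 38 members, FLO-1LM against parental, with its 95% confidence interval from edgeR, ordered by role. The diamond marks *CEBPB* at −0.87, the member called at an adjusted p below 0.05, and circles mark the other members, which lie between −0.30 and 0.38.

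*CEBPB* (ENSG00000172216, chr20:48807367-48809205 on GRCh37, plus strand) encodes C/EBPβ, a transcription factor that is itself induced in the integrated stress response and that pairs with ATF4 and CHOP. It had 29.7 and 35.5 CPM in the FLO-1LM libraries and 54.9 and 64.5 CPM in the parental libraries. Both FLO-1LM libraries were below both parental libraries, with a gap wider than the spread within either line. Expression fell by 45.2% in FLO-1LM, a log2 fold change of −0.87 ± 0.11 (SE, 95% confidence interval −1.10 to −0.63; edgeR adjusted p = 0.00014). It ranked number 48 of all genes by p. *CEBPB* was called in each of the 12 alternative analyses, with log2 fold changes from −1.0 to −0.75. No other gene of the annotation overlaps it.

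The other 4 transcription factors of the integrated stress response were not called, and *DDIT3* alone of them had an unadjusted p below 0.05. *ATF4*, the central factor, had 242.5 and 293.1 CPM in FLO-1LM and 245.9 and 264.8 CPM in parental cells, so the lines overlapped. Its log2 fold change was 0.07 ± 0.09 (SE, edgeR adjusted p = 0.83). *DDIT3* encodes CHOP, which promotes cell death when stress persists. Its levels were 28.8 and 37.68 CPM in FLO-1LM and 39.1 and 40.6 CPM in parental cells. Both FLO-1LM values were the lower ones, and the second came within 1.38 CPM of the nearer parental library. The log2 fold change was −0.26 ± 0.12 (SE, edgeR adjusted p = 0.40). *DDIT3* shares 355 bases of exon with the methionyl-tRNA synthetase gene *MARS* on the opposite strand, whose counts were up to 770% of its own, and the strand setting of the counting is not stated. For *ATF5* and *CEBPG*, factors that act beside ATF4, the log2 fold changes were −0.04 and 0.10, and neither separated the lines. *CEBPB* was thus the single member of this group of 5 whose change passed the test.

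Feedback and effector targets of ATF4 and CHOP numbered 6, and edgeR called none, with 1 at an unadjusted p below 0.05. *DDIT4* (REDD1), an inhibitor of mTORC1 that is also induced by hypoxia and glucocorticoids, came nearest. It had 146.0 and 183.5 CPM in FLO-1LM and 188.7 and 217.6 CPM in parental cells. The highest FLO-1LM value was 5.19 CPM under the lowest parental value, so the lines did not overlap but nearly met. Its log2 fold change was −0.30 ± 0.10 (SE, edgeR adjusted p = 0.15). *CHAC1*, which breaks down glutathione and is among the most responsive ATF4 targets, was spread widely in both lines. Its levels were 13.0 and 22.7 CPM in FLO-1LM and 10.9 and 16.7 CPM in parental cells, with a log2 fold change of 0.38 ± 0.22 (SE, edgeR adjusted p = 0.54). The second library of each line was far above the first, and the lines overlapped. The remaining 4 had fold changes closer to 0. *SESN2*, a stress-induced inhibitor of mTORC1, stood at 0.13 on the log2 scale, and *VLDLR*, a lipoprotein receptor, at 0.04. *PPP1R15A* (GADD34), which directs the phosphatase that reverses eIF2 phosphorylation, stood at −0.04, and *TRIB3*, a pseudokinase that restrains ATF4 and AKT, at −0.0028.

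None of the 7 members for amino acid synthesis and transport was called by edgeR, although *ASNS* and *SHMT2* had unadjusted p-values below 0.05. *ASNS* encodes asparagine synthetase, a widely used readout of ATF4. Its levels were 147.6 and 223.2 CPM in FLO-1LM and 131.4 and 156.2 CPM in parental cells. The first FLO-1LM library lay between the parental libraries and the second was above both. The log2 fold change was 0.37 ± 0.13 (SE, 95% confidence interval 0.09 to 0.64; edgeR adjusted p = 0.21). *SHMT2*, the mitochondrial enzyme that turns serine into glycine and a one-carbon unit, had 112.8 and 137.6 CPM in FLO-1LM and 100.7 and 112.5 CPM in parental cells. Its lines did not overlap, by a margin of 0.343 CPM, and its log2 fold change was 0.23 ± 0.09 (SE, edgeR adjusted p = 0.30). *PSAT1* and *PHGDH*, which make serine, stood at 0.15 and 0.11 on the log2 scale. The cystine transporter gene *SLC7A11* stood at 0.12, and its partner *SLC3A2* and the leucine transporter gene *SLC7A5* at −0.12 and −0.06. The lines overlapped for each of these 5 genes.

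**Figure D2:**
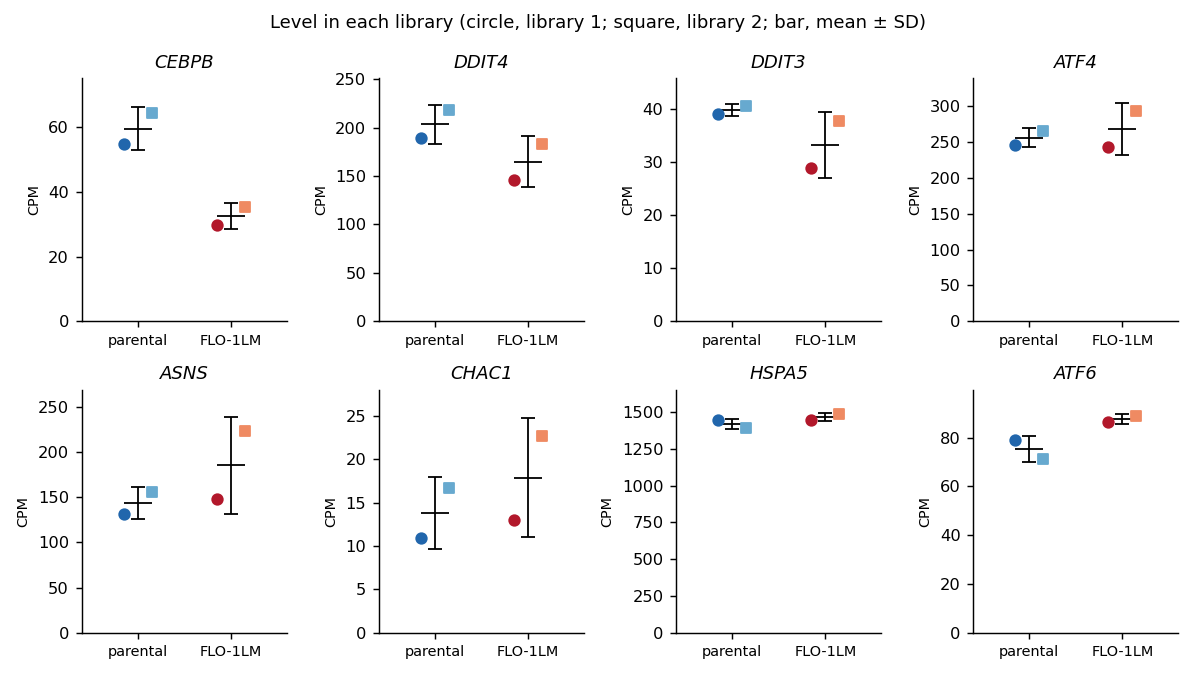
CPM of 8 members in each library, with parental libraries in blue and FLO-1LM libraries in red, circles for the first library of a line, squares for the second, and bars for the mean ± SD of 2 libraries. *CEBPB* separates the lines, *HSPA5* sits between 1393 and 1488 CPM in all 4 libraries, and the second FLO-1LM library stands high for *ASNS* and *CHAC1*.

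Of the 4 sensors and transcription factors of the unfolded protein response, none was called by edgeR, and 1, *ATF6*, had an unadjusted p below 0.05. *ATF6* had 86.3 and 89.0 CPM in FLO-1LM and 79.1 and 71.5 CPM in parental cells, a log2 fold change of 0.22 ± 0.09 (SE, edgeR adjusted p = 0.28). Both FLO-1LM libraries were above both parental libraries. *ERN1* had 15.04 and 13.0 CPM in FLO-1LM and 14.6 and 15.5 CPM in parental cells (log2 fold change −0.10 ± 0.16, SE, edgeR adjusted p = 0.88). *EIF2AK3* had 21.4 and 21.4 CPM in FLO-1LM and 23.3 and 22.8 CPM in parental cells (log2 fold change −0.11 ± 0.13, SE, edgeR adjusted p = 0.82). Its FLO-1LM libraries were both the lower ones by a margin of 1.43 CPM. *XBP1*, the target of IRE1, had 128.7 and 147.7 CPM in FLO-1LM and 136.2 and 131.0 CPM in parental cells (log2 fold change 0.05 ± 0.08, SE, edgeR adjusted p = 0.89), with the parental values between those of FLO-1LM.

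ER chaperones and their partners had fold changes close to 0, and 0 of 9 were called by edgeR, with 0 at an unadjusted p below 0.05. *HSPA5*, the most used readout of ER stress, had 1448 and 1488 CPM in FLO-1LM and 1444 and 1393 CPM in parental cells. Its log2 fold change was 0.05 ± 0.06 (SE, edgeR adjusted p = 0.84), and its 95% confidence interval, −0.09 to 0.18, left out a change of 0.2 in either direction. Both FLO-1LM libraries were above both parental ones, but the nearest were 4.13 CPM apart. *HSP90B1* (GRP94) stood at 0.03 on the log2 scale, the lectin chaperones *CALR* and *CANX* at 0.11 and 0.01, and *HYOU1*, a nucleotide exchange factor for BiP, at −0.12. The BiP cochaperones *DNAJB9*, *DNAJB11*, *DNAJC3* and *SDF2L1* stood at 0.04, 0.06, 0.09 and −0.18. The 9 fold changes therefore ran from −0.18 to 0.11, with a median of 0.035.

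Protein disulfide isomerases, which form and rearrange disulfide bonds, and the members for ER-associated degradation and secreted stress proteins gave 0 calls of 7 with edgeR, with 0 at an unadjusted p below 0.05. *PDIA4* and *PDIA6* had log2 fold changes of 0.06 and −0.10. For *PDIA6* the libraries of a line agreed closely, at 414.6 and 414.2 CPM in FLO-1LM and 444.3 and 446.3 CPM in parental cells, and yet the difference did not pass the test (edgeR adjusted p = 0.61). *PDIA3* stood at 0.01, a value that is uncertain because its pseudogene *PDIA3P1* held up to 91.3% as many counts. *HERPUD1*, a component of the degradation machinery and a sensitive stress target, had 62.5 and 69.8 CPM in FLO-1LM and 62.7 and 72.7 CPM in parental cells, with a log2 fold change of −0.03 ± 0.10 (SE, edgeR adjusted p = 0.94). *EDEM1*, which selects glycoproteins for degradation, stood at −0.08. The secreted proteins *CRELD2* and *MANF* stood at −0.12 and 0.07. The median over these last 4 members was −0.057.

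Per kb of transcript, chaperone genes led the set in both lines. The highest level was that of *CALR*, at 603 CPM per kb in FLO-1LM and 559 in parental cells, followed by *HSP90B1* at 543 and 531 and *HSPA5* at 374 and 362. *ATF4*, at 189 and 180 CPM per kb, ranked number 5 of 37 in FLO-1LM and number 7 in parental cells. The lowest levels were those of *SLC7A11*, at 1.88 and 1.74 CPM per kb, *ERN1*, at 1.78 and 1.90, and *VLDLR*, at 4.45 and 4.33. Of the other sensor genes, *EIF2AK3* was at 4.72 and 5.08 CPM per kb and *ATF6* at 11.7 and 10.1, near the cochaperone genes *DNAJB9*, at 10.7 and 10.4, and *DNAJC3*, at 15.6 and 14.7. *DDIT3* was at 36.8 and 44.1 CPM per kb, and *CEBPB* at 17.7 and 32.5. *ATF4* and *PDIA6* changed places between the lines on either side of *PDIA4*, and the order depends on the transcript length used, that of the canonical transcript. *DDIT4* has none tagged in the annotation used and was left out of the order.

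**Figure D3:**
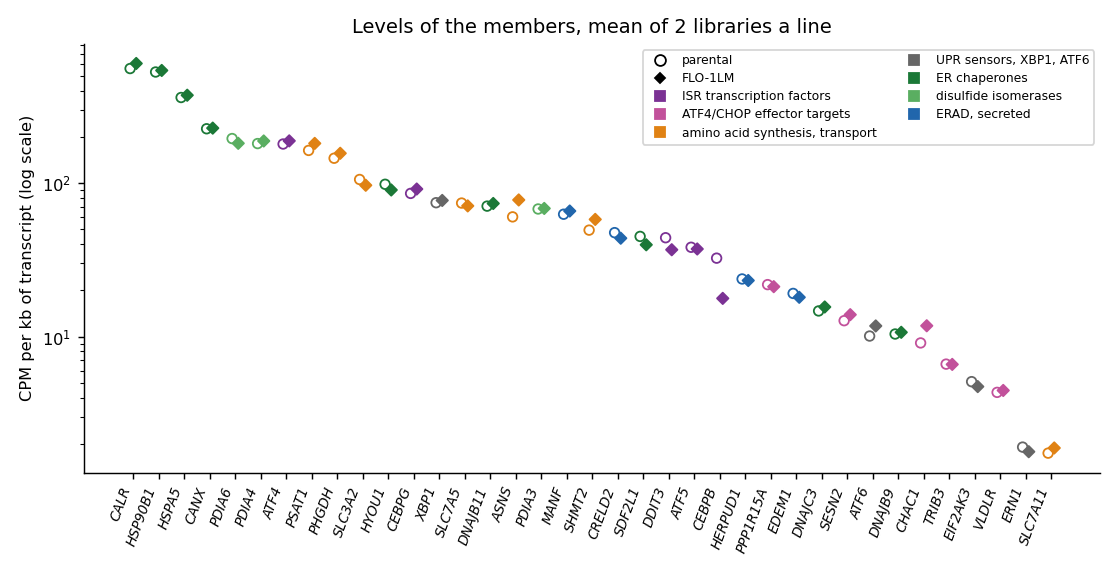
Level of 37 members in CPM per kb of canonical transcript on a log axis, the mean of 2 libraries per line, with open circles for parental and filled diamonds for FLO-1LM, colored by role. ER chaperone genes hold the highest levels, from 603 CPM per kb for *CALR* in FLO-1LM, and the 2 symbols stand farthest apart for *CEBPB*.

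Differences between libraries of the same line were larger than those between the lines for many ATF4 targets. In CPM, 16 of 18 members of the integrated stress response (transcription factors, effectors, and amino acid genes) were higher in the second FLO-1LM library than in the first, with a median log2 ratio of 0.29. Among the 12047 genes with a mean of at least 100 counts, 48.4% were higher in the second. For 8 of the 18 the ratio was at least 0.3. Of all 38 members those 8 are 21.1%, beside 8.33% of those genes. The largest ratios were those of *CHAC1* (0.80), *SLC7A11* (0.70), *ASNS* (0.60) and *SESN2* (0.46), followed by *VLDLR* (0.40), *DDIT3* (0.39), *DDIT4* (0.33) and *SLC3A2* (0.32). For *MARS*, opposite *DDIT3*, the ratio was 0.49, and the part of shared reads in the ratio of *DDIT3* was not tested. For *ASNS* the error from counting alone is 0.032, and for *CHAC1*, with fewer counts, it is 0.10. The split of the members into 18 and 20 was made after these values were seen, and the ratios are given as a description, without a test.

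Members for ER folding and the unfolded protein response did not show the same difference between the FLO-1LM libraries. Their median log2 ratio was 0.031, 12 of 20 were positive, and none reached 0.3. *HSPA5* stood at 0.04, *HSP90B1* at 0.02 and *PDIA6* at −0.0014. The member farthest from 0 was *SDF2L1*, which was lower in the second library, at −0.32. It was the one member of the 38 lower by at least 0.3, beside 7.84% of genes. *XBP1* at 0.20 and *CANX* at 0.18 were the highest of the 20. The 2 FLO-1LM libraries had total counts of 22646123 and 25920336 and mitochondrial shares of 9.96% and 9.57%, and the part of either in this difference was not tested.

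The parental libraries showed a smaller difference of the same kind. There, 15 of the 18 integrated stress response members were higher in the second library, with a median log2 ratio of 0.22, and 4 reached 0.3. These were *CHAC1* (0.62), *SLC7A11* (0.48), *PHGDH* (0.40) and *TRIB3* (0.33). The 4 make 10.5% of all members, beside 4.6% of the genes with a mean of at least 100 counts. No member was lower by 0.3, beside 3.5% of those genes, of which 49.6% were higher in the second library by any amount. Over the 20 ER folding members the median ratio was −0.012. Since the numbers only follow the order of listing, they tie no library of one line to a library of the other. Of the 18 members, 10 had their highest level in the second FLO-1LM library and 6 in the second parental library, beside 27.7% and 20.5% of all genes with a mean of at least 100 counts. The lowest level was in the first FLO-1LM library for 9 and in the first parental library for 7, beside 25.2% and 24.7% of those genes. For 17 of these 18 the gap between the FLO-1LM libraries exceeded the gap between the means of the lines, the exception being *CEBPB*, beside 57.1% of genes with a mean of at least 100 counts. Among the 20 ER folding members the same held for 12 (60%), a share near that of all genes.

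**Figure D4:**
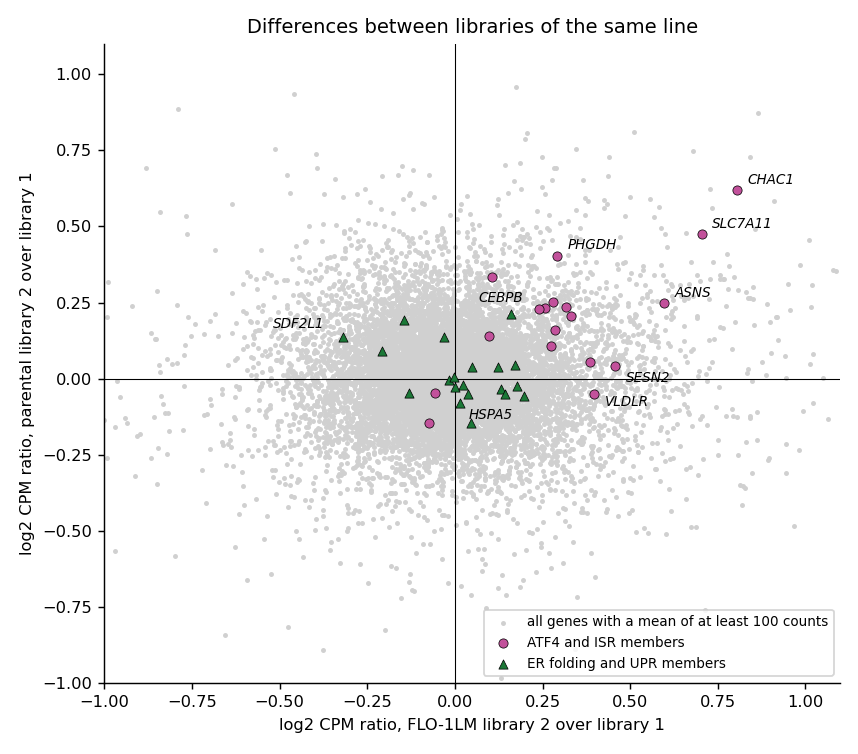
Log2 ratio of CPM between the libraries of a line for each gene with a mean of at least 100 counts, FLO-1LM on the x axis and parental on the y axis, drawn between −1 and 1.1. Of the circles for the 18 ATF4 and integrated stress response members, 16 lie to the right of 0, with a median of 0.29 on the x axis over all 18. Triangles for the 20 ER folding members center near 0.

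**Figure D5:**
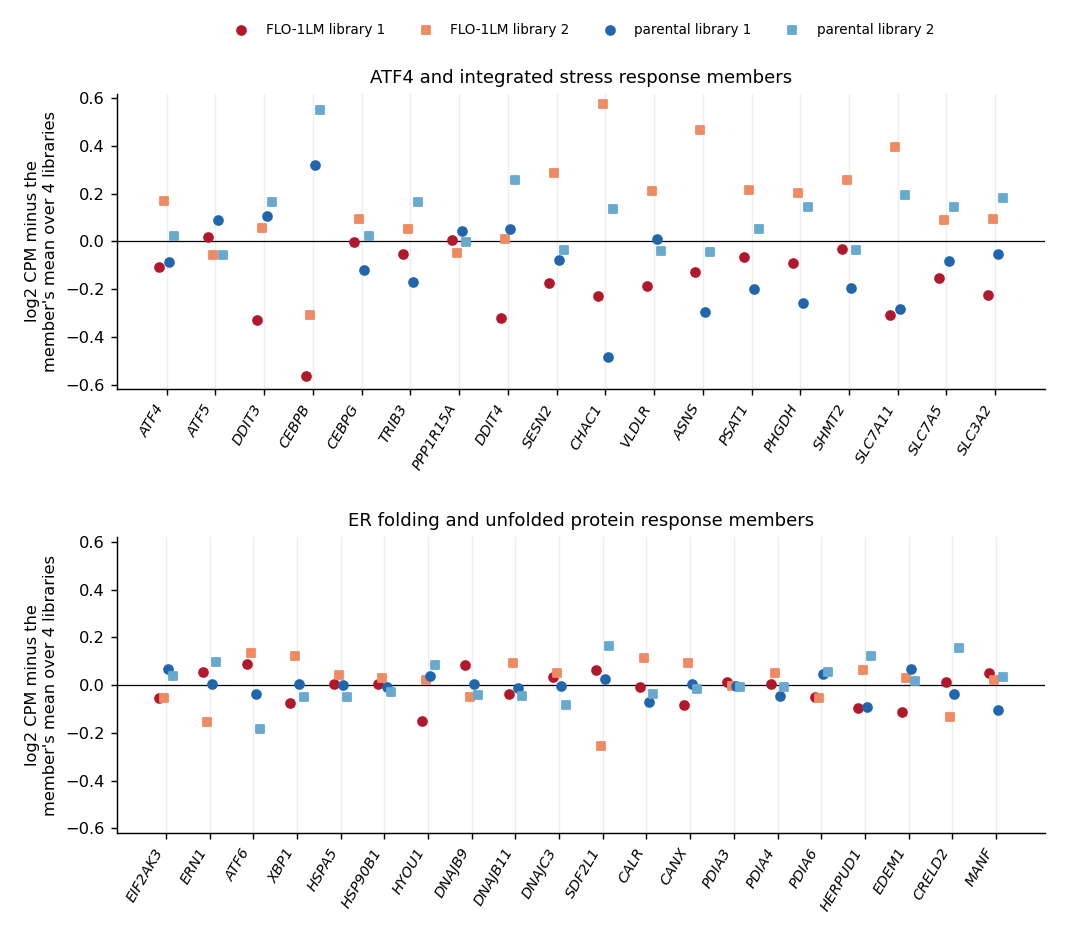
Log2 CPM of each member in each library relative to its mean over the 4 libraries, with the 18 integrated stress response members above and the 20 ER folding members below. In the upper panel the second library of each line (squares) mostly lies above the first (circles), and in the lower panel most points lie within 0.2 of 0.

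Which members were called therefore depended on which FLO-1LM library was used. Without the first FLO-1LM library, 6 members were called, beside 5.85% of all genes tested, with *CEBPB* lower and 5 ATF4 targets higher in FLO-1LM. These were *CHAC1* (log2 fold change 0.73, edgeR adjusted p = 0.00029), *ASNS* (0.64, adjusted p = 3.08e-11), *SHMT2* (0.37, adjusted p = 0.0019), *SESN2* (0.34, adjusted p = 0.030) and *PSAT1* (0.29, adjusted p = 0.013). Without the second FLO-1LM library, 4 members were called, beside 5.4% of all genes, and all were lower in FLO-1LM. Beside *CEBPB* at −1.0 they were *DDIT4* (−0.48, edgeR adjusted p = 1.02e-05), *DDIT3* (−0.47, adjusted p = 0.0065) and *SLC3A2* (−0.29, adjusted p = 0.024). *CEBPB* was the one member shared by the 2 lists. Over all genes these fits called 1052 and 967, more than the 382 of the 4 libraries together, where each fit takes its spread from the parental pair alone and the lone FLO-1LM library is assumed to vary like it. Leaving out either parental library left *CEBPB* as the one called member, beside 116 and 139 calls over all genes (0.651% and 0.775%) with the spread taken from the FLO-1LM pair.

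A further 126 genes of the same pathways were listed by name in 9 groups. Of these, 124 were tested and *TXNIP* and *ERN2* are listed at 0 counts in all 4 libraries. Their identifiers came from a later annotation than that counted on, so a count of 0 does not show that the gene is silent. Whether their reads were counted under another identifier was not tested. None of the 124 was called by edgeR, beside the 2.23% over all genes. At an unadjusted p below 0.05 there were 15 of the 124, beside 12.4% of all genes, so this share is near the background. DESeq2 called 1, *NARS*, as did edgeR without a low-count filter, and limma voom on library totals called 1, *WARS*. Their median log2 fold change was 0.027. The genes named next are those with the largest fold change in each group among genes with a mean of at least 100 counts.

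Among 20 cytosolic aminoacyl-tRNA synthetases, which charge tRNAs and are known ATF4 targets, the median log2 fold change was 0.060. *NARS* had 394.5 and 453.6 CPM in FLO-1LM and 340.7 and 360.0 CPM in parental cells, and a log2 fold change of 0.28 ± 0.08 (SE, edgeR adjusted p = 0.080). *WARS* had 203.1 and 218.9 CPM in FLO-1LM against 252.1 and 249.4 CPM, at −0.25 ± 0.07 (SE, edgeR adjusted p = 0.10). The lines did not overlap for either gene, and the directions were opposite. Among further ATF4 and CHOP targets, *NUPR1*, a small stress-induced chromatin protein, had 8.30 and 9.59 CPM in FLO-1LM and 11.7 and 14.9 CPM in parental cells, at −0.56 ± 0.19 (SE, edgeR adjusted p = 0.16), and *JDP2*, an AP-1 repressor, stood at −0.30. For serine, one-carbon and nonessential amino acid enzymes the leading genes were *ALDH1L2* at 0.25 and *PYCR1* at 0.15, and for amino acid transporters *SLC36A1* at 0.23 and *SLC7A1* at −0.20.

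Genes upstream of ATF4 and those of the ER showed values of the same size. For the eIF2 kinases, phosphatase and exchange factor, the largest were *EIF2B2*, a subunit of the exchange factor, at 0.36, and *EIF2S1*, the phosphorylated subunit of eIF2, at 0.18. Among ER-bound transcription factors and their proteases, *MBTPS2*, which makes the second cut in ATF6, stood at 0.19 and *CREB3* at 0.16. In ER folding and glycoprotein quality control, *UGGT2*, a folding sensor for glycoproteins, stood at 0.25 and *TXNDC11* at −0.21. The degradation genes *EDEM2* and *HERPUD2* stood at 0.19 and 0.15. The translocation genes *SEC61G* and *SSR2* stood at −0.29 and 0.18, and *SEC61G* had an edgeR adjusted p of 0.13. None of these genes passed the test.

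The difference between the FLO-1LM libraries was also seen in several pathway groups of the ATF4 branch. The median log2 ratio of the second library to the first was 0.20 over serine, one-carbon and nonessential amino acid enzymes, 0.23 over amino acid transporters and 0.17 over tRNA synthetases. Over the further ATF4 and CHOP targets it was 0.13, under the 0.19 of the same group in the parental pair. It was 0.0031 over ER folding and quality control, −0.020 over ER-associated degradation and −0.037 over ER translocation. Genes chosen for the size of this ratio were *STC2* (0.81), a secreted glycoprotein and ATF4 target, *ALDH1L2* (0.69), *CTH* (0.66), *MARS* (0.49), *SLC6A9* (0.47), *SARS* (0.46), *IARS* (0.41), *AARS* (0.39), *ERP29* (0.39) and *PYCR1* (0.37). *ERP29* is an ER folding gene, outside the ATF4 branch. In all, 14 of 122 pathway genes with a mean of at least 100 counts reached 0.3, beside 8.33% of all such genes. *STC2* had 33.9 and 59.4 CPM in FLO-1LM and 43.0 and 52.6 CPM in parental cells, so its parental values lay between those of FLO-1LM. Without the first FLO-1LM library 9 of the 124 pathway genes were called, all higher in FLO-1LM, beside 5.85% of all genes, and without the second 6 were called, all lower, beside 5.4%. *STC2* was in both, at 0.32 (edgeR adjusted p = 0.045) and −0.49 (edgeR adjusted p = 0.0015), so its direction turned with the library left out. Without either parental library none was called.

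Reads that overlapping genes or near-identical copies could share bear on some members. In the annotation, 22 members overlap no other gene and 16 have a gene on the opposite strand, with 21 such genes in all. Of 14 overlapping genes tested, 2 were called, both lower in FLO-1LM, beside 2.23% of all genes called and 1.83% called lower. *ATP6V1C2*, a subunit gene of the vacuolar proton pump, shares 1033 bases of exon with *PDIA6* and had 50 and 71 counts in FLO-1LM and 240 and 183 in parental cells (log2 fold change −2.02 ± 0.24, SE, edgeR adjusted p = 5.22e-05). Its counts were at most 2.45% of those of *PDIA6*. A noncoding gene, ENSG00000267458, opposite *CALR* over 270 bases, had 2 and 1 counts in FLO-1LM and 41 and 36 in parental cells (edgeR adjusted p = 0.0019), at most 0.177% of the counts of *CALR*. *CBY3*, opposite *CANX* over 638 bases of exon, had 0 and 0 counts in FLO-1LM and 1 and 12 in parental cells. It did not pass the filter on low counts and was not tested. *ATF5* shares 565 bases of exon with *NUP62* and *CRELD2* shares 168 with *ALG12*, whose counts were up to 131% and 55.7% of theirs. Among pseudogenes other than *PDIA3P1*, *PSAT1P3* held up to 9.0% of the counts of *PSAT1*, *ASNSP1* up to 7.24% of those of *ASNS* and *ATF4P4* up to 6.69% of those of *ATF4*. *ATF4P4* had 166 and 505 counts in FLO-1LM and 239 and 238 in parental cells. Their part in the results was not tested.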

How the data were processed

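RNAseq was performed on FLO-1LM and FLO-1 parental cells, 2 libraries each, grouped by the labels. Directional libraries were made by the authors from total RNA, and, per their processing notes, bcl2fastq 2.17, Trimmomatic 0.30 and the genome build GRCh37 were used. They deposited unnormalized read counts per Ensembl gene, and the counting program and strand setting are not given in the sources used here. The counts were filtered with filterByExpr (minimum count 10, minimum total 15) and scaled by TMM. Lines were compared with edgeR 4.0.16 (estimateDisp, glmQLFit, glmQLFTest) in R 4.3.3, with Benjamini-Hochberg adjustment over all tested genes and a threshold of 0.05. Standard errors and 95% intervals were derived from the fit. The test was also tried on simulated data with known changes in genes drawn from all those tested. There edgeR called 34.8% of genes with a true log2 fold change of 0.5 in size and 74.6% of those at 1. A gene that was not called may therefore still differ between the lines. Alternatives were DESeq2 1.42.0, limma voom (limma 3.58.1) with TMM factors or library totals, edgeR with RLE factors or library totals, other low-count filters, no mitochondrially encoded genes, and each library left out. Gene positions and transcript lengths came from GENCODE v44 mapped to GRCh37, a later annotation than that counted on. Promoter windows came from RefSeq on GRCh38.p14, and no coordinates were converted. The members and lists were chosen with earlier results of these data known. Every called member is described with its value in each library, as are the 6 next smallest p and one or more defining members of each role. Of the further pathway genes, those called and the 2 largest fold changes per list among genes with a mean of at least 100 counts are named. A check of C-terminal ER retrieval signals was not done, since no protein sequences were used here. At the depth of 19060310 to 25920336 counts, SEs of log2 fold changes ran from 0.063 (*HSP90B1*) to 0.22 (*CHAC1*).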

Additional observations from a re-analysis of the deposited data

How the results depend on the processing

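*CEBPB* stayed lower and past the threshold in all 12 alternatives. The count of called members, 1, was 3 without a low-count filter (*CEBPB*, *DDIT4* and *ASNS*) and 1 to 6 with a library left out. Pathway genes called, 0 in the chosen analysis, were 1 with DESeq2, 1 with limma voom on library totals, 1 without a low-count filter, and 0 to 9 with a library left out. Over all genes, 382 calls became 577 without a low-count filter and 116 to 1052 with a library left out. The median log2 fold change of the members ran from −0.046 to 0.054 with a library left out. The count of members at least 0.3 higher in the second FLO-1LM library, 8, was 3 at a threshold of 0.5 and 10 with library totals, both chosen after seeing the data. Of the values for single members, 419 kept their direction and side of the threshold, 10 passed it only in the alternative and 27, for 17 members, changed sign. Changes of sign with all libraries were small, namely *TRIB3* at 0.015 (limma voom with TMM), *DNAJB9* at −0.00074 (limma voom on library totals), *CANX* at −0.017 and −0.019 and *PDIA3* at −0.019 and −0.019 (edgeR and limma voom on library totals). With a library left out, log2 fold changes that changed sign ranged from −0.074 to 0.20 for *ATF4*, −0.11 to 0.038 for *ATF5*, −0.16 to 0.17 for *TRIB3*, −0.12 to 0.34 for *SESN2*, −0.078 to 0.73 for *CHAC1*, −0.17 to 0.23 for *VLDLR*, −0.081 to 0.32 for *PHGDH*, −0.28 to 0.43 for *SLC7A11*, −0.19 to 0.058 for *SLC7A5* and −0.29 to 0.025 for *SLC3A2*. For ER members they ranged from −0.21 to 0.0026 for *ERN1*, −0.053 to 0.14 for *XBP1*, −0.032 to 0.10 for *DNAJB9*, −0.0098 to 0.12 for *DNAJB11*, −0.076 to 0.099 for *CANX* and −0.14 to 0.078 for *HERPUD1*. The causes were not tested. No paired analysis was possible because the labels give the libraries no replicate numbers, and the numbers used follow the order of listing.

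With 2 libraries per line, the 95% interval lay within 0.3 of 0 on the log2 scale for 21 of 38 members. For the others except *CEBPB*, changes of that size lie inside it. The interval of *CEBPB*, −1.10 to −0.63, lies wholly beyond that size. Counting error of the log2 ratio between the FLO-1LM libraries was 0.011 for *HSPA5* and 0.10 for *CHAC1*.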
